A study of Mus musculus with 8 samples.

Results

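The widest accessible sites shared by every liver library were examined. Accessible sites were built by merging all overlapping or touching ATAC-seq peaks of 8 peak lists, and an autosomal site was retained when it had a peak in all 8 lists and a merged width of 2000 bp or more. This rule returned 270 sites, which were 0.734% of the 36789 autosomal sites with a peak in every list and 0.327% of all 82508 merged sites. The sites were therefore chosen by their merged width and by their presence in every library, which are described below without a test. The widths of the single libraries entered that merged width, so the comparisons of width between ages further below draw on values that also chose the sites.

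ATAC-seq uses a transposase that inserts sequencing adapters into DNA not covered by nucleosomes, so that peaks of reads mark accessible chromatin. An accessible site is usually a short nucleosome-depleted stretch at a promoter or an enhancer, a distal element that raises transcription of its gene. A wider site can hold several such stretches side by side, separated by nucleosomes that are present in part of the cells. Liver consists mostly of hepatocytes, with Kupffer cells (resident macrophages), sinusoidal endothelial cells, stellate cells and bile duct cells, and a peak from whole liver averages over all of them. Opening in more cells and wider opening in the same cells cannot be told apart in such material.

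The series held 8 ATAC-seq libraries of whole liver from 4 male C57BL/6 mice on normal chow, with no other treatment or engineered allele in the labels. The Young group was 2 mice of 6 months (replicates 1 and 2 from one, replicates 3 and 4 from the other), and the Old group was 2 mice of 23 months with libraries numbered in the same way. Each list gave the position of its peaks and 1 fold enrichment per peak, the signal at the peak over its background. The labels give no substrain, while the methods of the study name different C57BL/6 substrains and other ages for young and aged mice, so age cannot be told apart from the origin of the animals.

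The Young lists held 59751, 61371, 61423 and 57827 peaks and the Old lists 58068, 57461, 57084 and 56423, so that the Old lists were shorter on average although the ranges overlapped. Read depth is unknown, because the lists hold no read counts. Positions below are written as in mm9, the build named in the processing notes of the submitters. Part of the peaks lay past the chromosome ends of GRCm38, the later mouse assembly, so no annotation of that assembly was laid over the sites. Genes, marker genes of liver cell types and sequences at the sites were not analysed here for want of an mm9 annotation.

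The 270 sites had a median merged width of 2185 bp, against 743 bp for the other autosomal sites with a peak in every list. Together they covered 605.844 kb. Most were close to the limit, with 165 sites under 2250 bp, 77 sites from 2250 to under 2500 bp and 28 sites of 2500 bp or more. The sites just inside the limit were chr11:84683033-84685032 at 2000 bp, and chr3:104441698-104443698 and chr14:21871020-21873020 at 2001 bp each. The sites just outside it were chr9:20348068-20350066 and chr2:166630716-166632714 at 1999 bp and chr3:95621949-95623946 at 1998 bp. No autosomal site of this width was missing from any list, and the widest autosomal site that lacked a list measured 1747 bp. On the sex chromosomes 4 sites of this width with a peak in every list were left out by the rule.

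A wide merged site was seldom a wide peak in every library. Only 28 of the 270 sites had 2000 bp or more of summed peak width in each of the 8 lists, 162 reached it in at least 1 list, and 108 reached it in none. A single unbroken peak of 2000 bp or more was present in at least 1 list at 125 sites and in every list at 4 sites. Those 4 sites, singled out after their values were seen, were chr17:39980097-39983636, chr16:20715832-20718288, chr17:45709350-45711617 and chr1:16094266-16096568. The number of peaks per site also varied between libraries. At 14 sites every list had 1 peak, at 55 sites every list had 2 or more, and at the remaining 201 sites some lists had 1 and others several, up to 5.

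The base pairs covered by a peak in all 8 lists are called the core here. The core made up 58.8% of the merged width over the 270 sites, with a median of 59.5% per site and a range from 17.7% to 97.6%. The core was split into 2 or more segments at 218 sites, or 80.7%, against 51.0% of the 1641 sites of 1500 to under 2000 bp. A site with 2 core segments was the most frequent form, found 129 times, followed by 3 segments at 64 sites, 1 segment at 52 sites and 4 segments at 19 sites. The bases outside the core lay mostly at the outer edges, which held 25.4% of the merged width against 30.9% in the narrower class. Stretches between core segments held 15.8%, against 8.85%. Wider sites were thus more often divided than sites of the next width class, and a larger share of their width lay between the segments. Splitting is partly given by width, since a longer interval has more room for gaps, and no test was made of it.

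**Figure D1:**
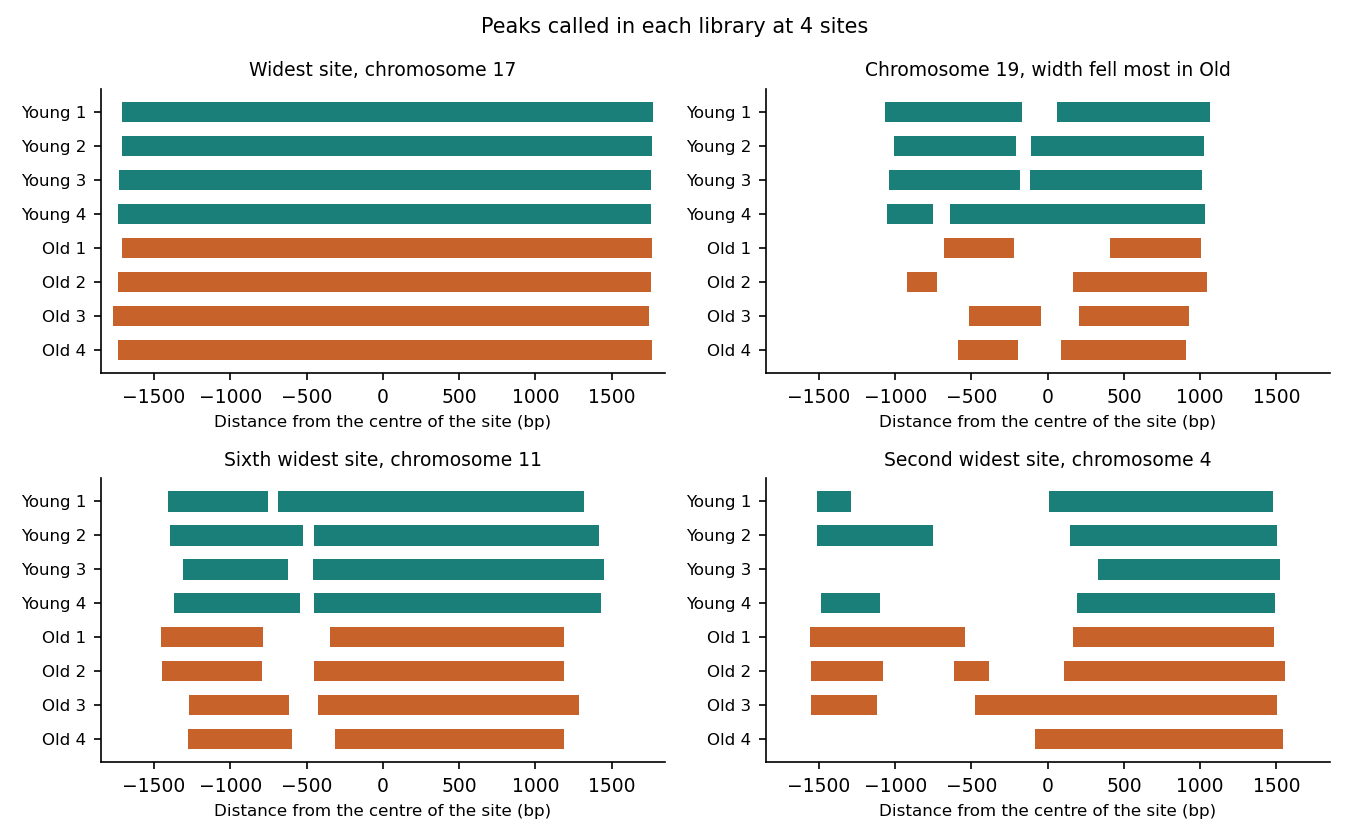
Peaks called in each library at 4 of the widest sites; each bar is 1 peak, the horizontal axis is the distance from the centre of the merged site in bp, the upper 4 rows are the Young libraries and the lower 4 the Old libraries. The site on chromosome 17 was 1 peak of 3476 to 3519 bp in every library, the sites on chromosomes 11 and 19 had 2 peaks in every library, and the second widest site had 1 to 3 peaks with different ends.

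The widest site was chr17:39980097-39983636, with a merged width of 3540 bp. It was 1 peak of 3477, 3476, 3487 and 3500 bp in the Young libraries and of 3478, 3494, 3519 and 3500 bp in the Old libraries. Its fold enrichment was 2.51, 2.51, 2.60 and 2.59 in the Young libraries and 2.55, 2.52, 2.58 and 2.63 in the Old libraries. Ranked by fold within each list, it lay at only the 0.64 to 1.45 percentile of all peaks. No filter for repeated sequence was applied to the lists here. Its ends were nearly the same in every library, and its core of 97.6% of the merged width was the highest of the 270 sites. Of the 12 widest sites, the other 11 had a core of at most 67.8%.

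The second widest site, chr4:150243595-150246713 with a merged width of 3119 bp, showed the opposite form. Its summed peak width was 1688, 2116, 1192 and 1686 bp in the Young libraries and 2331, 2150, 2410 and 1629 bp in the Old libraries. The groups overlapped, and the core was 36.9% of the merged width. It also had the lowest fold of all the members, with a median of 2.37 over the 8 lists. At chr8:47824609-47827707 every library had 3 to 5 peaks, and the summed width ranged from 1665 bp in Young replicate 4 to 2638 bp in Old replicate 2. At chr4:49559636-49562660 the core was only 20.99%, with widths from 1490 bp in Young replicate 4 to 2498 bp in Old replicate 4. No library covered any of these 3 sites with a single peak. From the first to the last peak, the longest reach of a library was 3112 bp (Old replicate 2), 3031 bp (Old replicate 1) and 2910 bp (Young replicate 3). Peaks of other libraries bridged the gaps inside.

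The remaining 8 of the 12 widest sites measured 2936 to 2773 bp. In order of width they were chr19:23208428-23211363, chr11:77989762-77992665, chr1:90108214-90111108, chr3:58218334-58221185, chr18:39648682-39651506, chr12:114378284-114381093, chr2:160191077-160193870 and chr6:108608352-108611124. The first of these had the most divided core, with 6 segments. Among the 12 widest sites the mean summed width was higher in Young at 8 and higher in Old at 4, and the widths of the libraries overlapped at all but the site on chromosome 11, described below.

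The widest sites did not have the highest peaks. The highest fold of a site in a list was taken as its height, and the median over the 8 lists was used per site. The median height of the 270 sites was 5.55, with a range from 2.37 to 10.1, against 7.02 for the sites of 1500 to under 2000 bp and 7.08 for all other sites with a peak in every list. Only 28 of the 270 sites were above the median of the other sites. Across all sites the height rose with width from 5.54 at 250 to under 500 bp to 8.44 at 1000 to under 1250 bp, and then fell through 7.82, 7.28 and 6.64 in the following 250 bp classes. The same fall continued within the chosen sites, from 5.90 under 2250 bp through 5.46 up to 2500 bp to 4.49 at 2500 bp or more. Over the 270 sites the Spearman correlation of merged width and height was −0.35, given as a description since all sites share the same libraries.

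**Figure D2:**
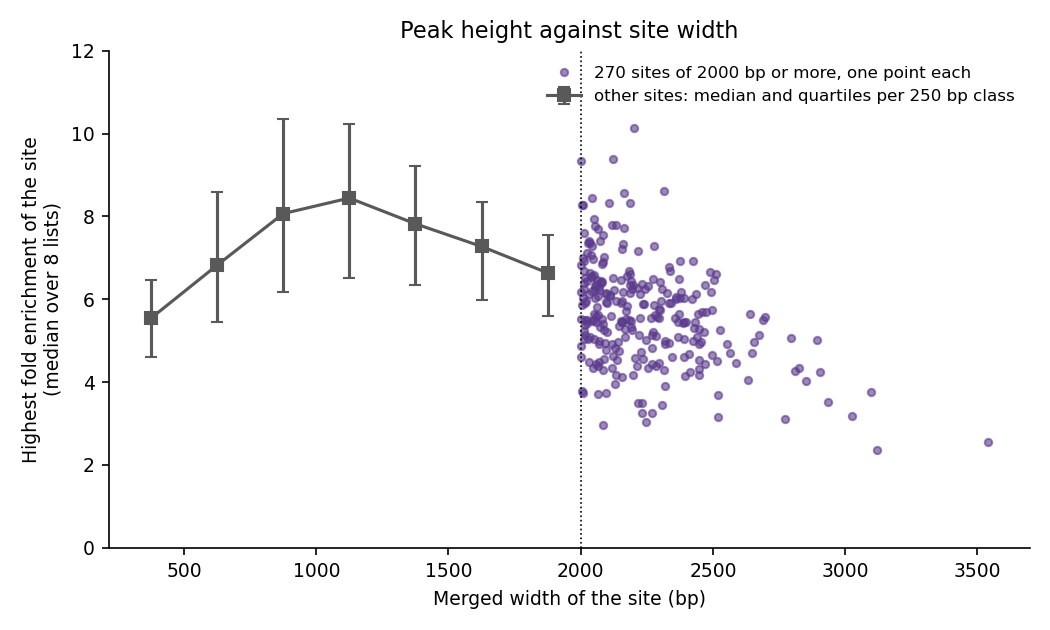
Height of each site (highest fold enrichment, median over 8 lists) against merged width in bp; squares and bars are medians and quartiles of the other sites in 250 bp classes, points are the 270 sites of 2000 bp or more, and the dotted line is the limit of the rule. Medians peak at 8.44 for sites of 1000 to under 1250 bp, and the 2 widest sites lie at the lower end with 2.56 and 2.37.

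Heights were then ranked within each list, where every peak shares the same depth. The strongest peak of a chosen site lay at the 47.1 percentile of all peaks of its list by the median over sites and lists, against 66.2 for sites of 1500 to under 2000 bp and 66.6 for the other sites. The strongest peak held 57.7% of the merged width by the median, and its midpoint lay 310 bp from the centre of the site. The fold is read against a background that the peak caller chose for each peak. In each list 22.5% to 24.1% of all folds were whole multiples of a common step of about 0.430 within 0.0015, the form that folds over one genome-wide background take in a MACS2 list. Of the 4005 peaks in the chosen sites only 11, or 0.275%, were such multiples, against 11.1% to 13.2% of the peaks at all other sites with a peak in every list. Almost no fold of the wide sites was thus on the step, but most folds at the other sites were off it as well. The background of each peak is not given in the lists, so heights cannot be taken to be on the same footing between wide and narrow sites. In the class of 1500 to under 2000 bp, 0.289% to 0.675% of peaks were on the step, and the median height was 7.02. The part of the background in the lower heights was not tested.

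A few wide sites were also high. The 6 sites with the highest minimum height over the 8 lists were chr4:109337779-109339981, chr12:111975198-111977199, chr13:14155168-14157289, chr6:134876976-134879139, chr18:21457258-21459264 and chr11:77499132-77501446. Their heights ran from 7.69 to 11.8 over all libraries. The widest of them measured 2315 bp, and their summed peak width was 1082 to 2078 bp. At chr4:109337779-109339981 the height was 10.0, 10.0, 8.71 and 10.2 in Young and 10.8, 11.8, 10.8 and 10.0 in Old. The groups overlapped, with Young replicate 3 below all others. At chr13:14155168-14157289 it was 8.58, 8.76, 8.80 and 9.39 in Young and 9.89, 9.39, 11.03 and 9.76 in Old. Every Old library was above every Young library, although Young replicate 4 and Old replicate 2 both rounded to 9.39.

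The chosen sites were spread over all 19 autosomes. Their share of the sites with a peak in every list ran from 0.439% on chromosome 9 to 1.25% on chromosome 18, and chromosome 10 held the most, 25 sites. The median distance between the centres of a site and the nearest other chosen site was 2.77 Mb. No pair lay within 10 kb, 10 sites were within 50 kb of another, and the closest pair, chr14:52532064-52534128 and chr14:52548832-52550843, was about 16.7 kb apart. Within 50 kb a chosen site had on average 4.42 other sites with a peak in every list, against 4.10 for the other sites, and the median was 4 in both. Sites without such a neighbour were 15 of 270, or 5.56%, against 9.39% of the other sites. These neighbourhoods are descriptions of one set of lists.

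The design then asks whether the wide sites differed between Young and Old liver. The summed peak width over the 270 sites was 497, 513, 522 and 501 kb in the Young libraries and 475, 484, 476 and 485 kb in the Old libraries. Every Old library was below every Young library. The mean was 508 ± 4.67 kb in Young and 480 ± 0.779 kb in Old (SD of the mouse means, n = 2 mice each), a fall of 5.58% in Old. An exact two-sided permutation test over mice gave p = 0.333, the smallest value that 4 mice allow, and so cannot reach 0.05 in this design. Counting each library as a replicate allows 70 arrangements and gave p = 0.0286 by exact permutation, again the smallest possible (0.0457 adjusted over the 8 measures compared in this way). Since libraries of 1 mouse are not independent, the p over libraries is too small.

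The width of the other sites fell by a similar share. They covered 23.9 ± 0.217 Mb in Young and 22.5 ± 0.0225 Mb in Old (SD, n = 2 mice), a fall of 5.80%. The chosen sites were 2.13% of that width in each of the 4 Young libraries, and 2.11%, 2.15%, 2.12% and 2.16% in the Old libraries. The groups overlapped, and the difference of 0.0048 percentage points was within the spread between Old libraries (exact permutation p = 0.333 over mice and 0.714 over libraries). The Old lists were shorter on average. The longest lists, Young replicates 3 and 2 with 61423 and 61371 peaks, covered the most of the chosen sites, 522 and 513 kb. Young replicate 4, with 57827 peaks, covered 501 kb, and Old replicate 1, with 58068 peaks, covered 475 kb. The part of list length was not tested. When every list was shortened to the number of peaks of the shortest, keeping the highest folds, the difference over the chosen sites was 0.375 kb higher in Old in place of 28.4 kb lower, and the exact permutation test over mice gave p = 1. With these shortened lists the chosen sites were 0.0863 percentage points higher in Old relative to the other sites. This cut dropped the lowest folds and took more peaks from the Young lists, which were longer on average. By fold within a list the chosen sites ranked lower than the other sites, at a median percentile of 47.1 against 66.6. The cut thus changed more than list length, and its part in the turn was not tested. The rule also touches the comparison of width, since Young libraries alone set 308 of the 540 outer ends of the sites and Old libraries alone 220. Of the chosen sites, 168 had 2000 bp or more covered by the 4 Old lists alone. Their width was 332 ± 0.503 kb in Young and 321 ± 1.86 kb in Old (SD, n = 2 mice), without overlap between libraries. These 168 sites also needed a peak in every list and were picked by the same widths, so they are no independent check.

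The lost width came from both the ends and the inside of the sites. The extent of a site in a list is the distance from the start of its first peak to the end of its last, and the gap is the part of the extent without a peak. The summed extent was 551 ± 1.79 kb in Young and 534 ± 0.135 kb in Old, and the summed gap was 42.7 ± 2.88 kb in Young and 53.8 ± 0.643 kb in Old (SD, n = 2 mice each). The gaps measured 50.01, 39.5, 35.3 and 46.1 kb in the Young libraries and 56.3, 52.2, 55.3 and 51.4 kb in the Old libraries, without overlap. Added gap made up 39.0% of the fall in width at the chosen sites. At the sites of 1500 to under 2000 bp it made up 19.6%, and the gaps of the libraries overlapped there. The gap rose by 25.9% at the chosen sites and by 21.6% in that class. At all other sites with a peak in every list it rose by 18.0%, with overlap between libraries. Among the chosen sites the gap grew at 166, shrank at 90 and was equal at 14. For both extent and gap the exact permutation test gave 0.333 over mice and 0.0286 over libraries (0.0457 adjusted). Both are read from the same peak ends as the merged width that chose the sites. These p are therefore not free of the rule, and the p over libraries again counts libraries of 1 mouse as independent. Among the 168 chosen sites with 2000 bp or more covered by the Old lists alone, the gaps of the 2 ages overlapped, at 28.7 ± 3.12 kb and 34.0 ± 0.774 kb.

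The number of peaks called in the sites was higher in Old on average. The sites held 508, 466, 462 and 501 peaks in the Young libraries and 516, 507, 528 and 517 in the Old libraries. The groups overlapped through Young replicate 1 and Old replicate 2, and the exact permutation p over libraries was 0.0571. In each library 84, 110, 112 and 96 of the sites were a single peak in Young, and 82, 92, 81 and 85 in Old. At 3 of the 270 sites, singled out after their values were seen, every Old library had more peaks than every Young library, and at 0 the reverse held. Over all 36789 sites with a peak in every list these counts were 23 and 13. In each library 93.2% to 94.3% of the other sites were a single peak, against 30.0% to 41.5% of the chosen sites. The 2 sets of counts are therefore not on the same footing. The clearest of the 3 sites, chr10:79316019-79318232, was 1 peak in each Young library and 2 peaks in each Old library.

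**Figure D3:**
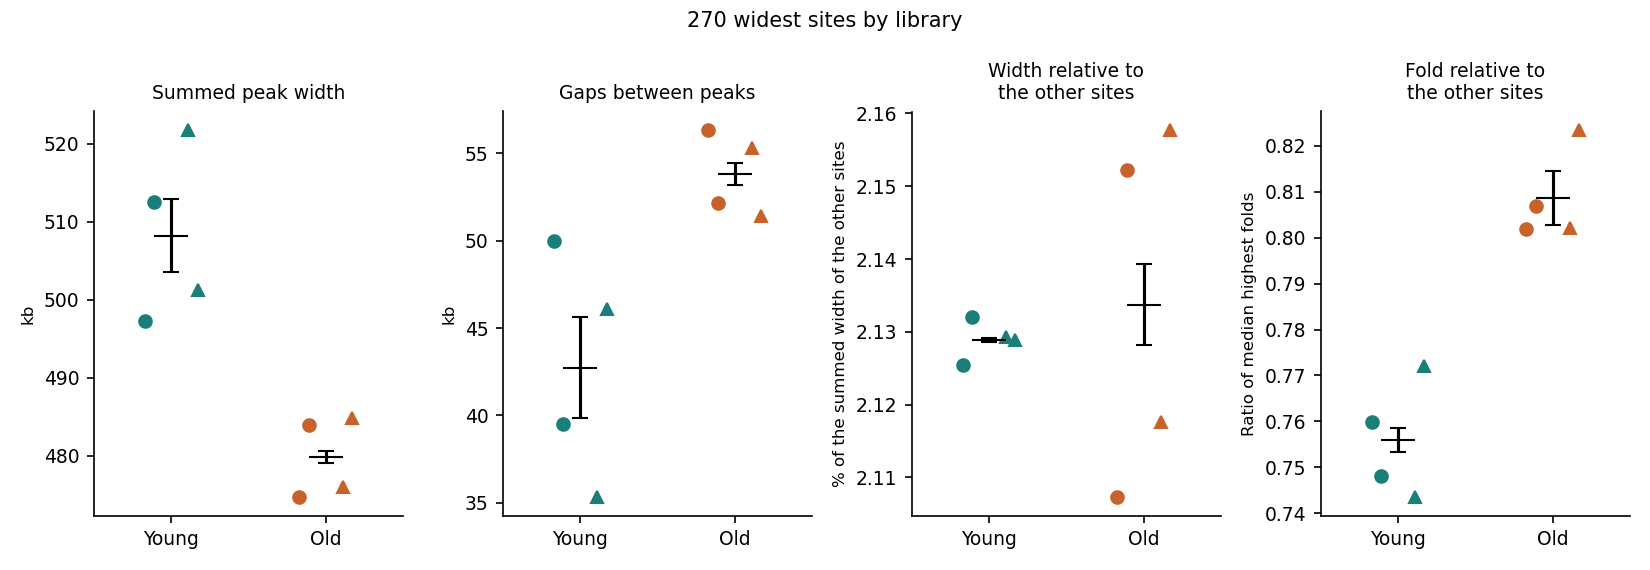
Values over the 270 sites in each library, for Young and Old: summed peak width in kb, gaps between peaks of a site in kb, summed width in % of that of the other sites, and the median height divided by that of the other sites. Circles and triangles are the 2 mice of an age with 2 libraries each, and the black marks are the mean ± SD of the mouse means. The vertical axes do not start at 0. Width, gaps and relative height do not overlap between ages, while the relative width does.

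The heights of the chosen sites overlapped between ages. The median height was 5.53, 5.56, 5.46 and 5.43 in the Young libraries and 5.51, 5.62, 5.64 and 5.66 in the Old libraries. The median of the other sites was 7.27 ± 0.119 in Young and 6.94 ± 0.0242 in Old (SD, n = 2 mice). Divided by it, the median of the chosen sites was 0.760, 0.748, 0.743 and 0.772 in Young and 0.802, 0.807, 0.802 and 0.823 in Old, so that every Old library was above every Young library. The strongest peak of a chosen site lay at the 44.9 to 45.5 percentile of its list in Young and at 47.3 to 50.7 in Old. For both measures the exact permutation p was 0.333 over mice and 0.0286 over libraries (0.0457 adjusted). The median height of the sites of 1500 to under 2000 bp was 7.02 ± 0.113 in Young and 6.99 ± 0.0773 in Old (SD, n = 2 mice). Divided by that of the other sites, it too was higher in every Old than in every Young library. Their median percentile was 64.6 to 65.7 in Young and 65.4 to 67.4 in Old, with overlap. The change in height moved with width across all sites: its median log2 ratio of Old over Young was −0.06 in both classes below 750 bp, −0.02 at 1000 to under 1250 bp and 0.02 at 2000 bp or more. It was 0.01 at 1500 to under 2000 bp, so a ratio above 0 was shared with the next width class.

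At single sites the spread between libraries was large beside the difference between ages. The median absolute log2 ratio of width was 0.13 between the technical libraries of a mouse, 0.14 between mice of one age and 0.17 between ages. For height it was 0.12, 0.13 and 0.14. Over the other sites these ratios were 0.22, 0.23 and 0.24 for width and 0.18, 0.20 and 0.21 for height. Both measures thus varied less between libraries at the chosen sites. Counts below that depend on this spread are therefore not on the same footing between wide and narrow sites. The mean width was lower in Old at 206 of the chosen sites and higher at 64. The median log2 ratio of width was −0.08, and it was also −0.08 over the other sites. The mean height was higher in Old at 163 sites and lower at 107.

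Every Young library was wider than every Old library at 26 of the 270 sites, or 9.63%. Over all 36789 sites with a peak in every list this share was 5.65%, and it was 7.37% among those of 1500 to under 2000 bp. Every Old library was wider at 1 site, or 0.370%, against 0.688% of all sites. This split turned with the scaling. With each width divided by the total peak width of its list, 5 sites were higher in Young and 22 in Old, against 1.44% and 4.82% of all sites. With lists of equal size 16 sites (5.93%) were higher in Young and 7 (2.59%) in Old, against 5.24% and 0.943% of all sites. Without Young replicate 1, Young replicate 2 or Old replicate 4 the count higher in Young was 49, 44 and 41, and the share of all sites rose as well, to 9.66%, 8.47% and 8.91%, since fewer libraries make a count without overlap easier to reach.

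For height, every Young library was higher at 3 sites and every Old library at 3 sites, or 1.11% each, against 4.48% and 1.54% of all sites. The sites higher in Young were chr1:183186440-183188965, chr13:55312082-55314327 and chr3:88950876-88953393. Those higher in Old were chr13:14155168-14157289, chr12:114378284-114381093 and chr5:66154281-66156438. Among the sites of 1500 to under 2000 bp these shares were 1.83% and 2.50%, and the differences between classes were not tested.

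No site passed limma with Benjamini-Hochberg adjustment over all 36789 sites on mouse means, for width or for height, so that 0% of all sites were called in either. At an unadjusted p under 0.05, limma had 61 of the 270 sites for width (22.6%), 58 of them narrower in Old. Over all sites it had 3569 (9.70%). Among those of 1500 to under 2000 bp it had 307 (18.7%), 288 of them narrower in Old. For height it had 2 of the 270 (0.741%), against 3387 of all sites (9.21%) and 21 (1.28%) in that narrower class. Widths varied less between libraries at the chosen sites than at the other sites, as given above, and the part of this in the shares was not tested. The lowest adjusted p of a chosen site was 0.232 for width and 0.509 for height. With libraries as replicates and the mouse as a random block, limma called 11 of all sites for width, of which 1 was a chosen site, and 36 for height, of which 0 were. The correlation between libraries of 1 mouse in that fit was −0.053 for width and −0.00068 for height, so the block took up almost no shared variation. With mice paired by number as a replicate block, limma called 0 of all sites for width and 101 for height (88 lower in Old), and 0 of these were chosen sites.

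**Figure D4:**
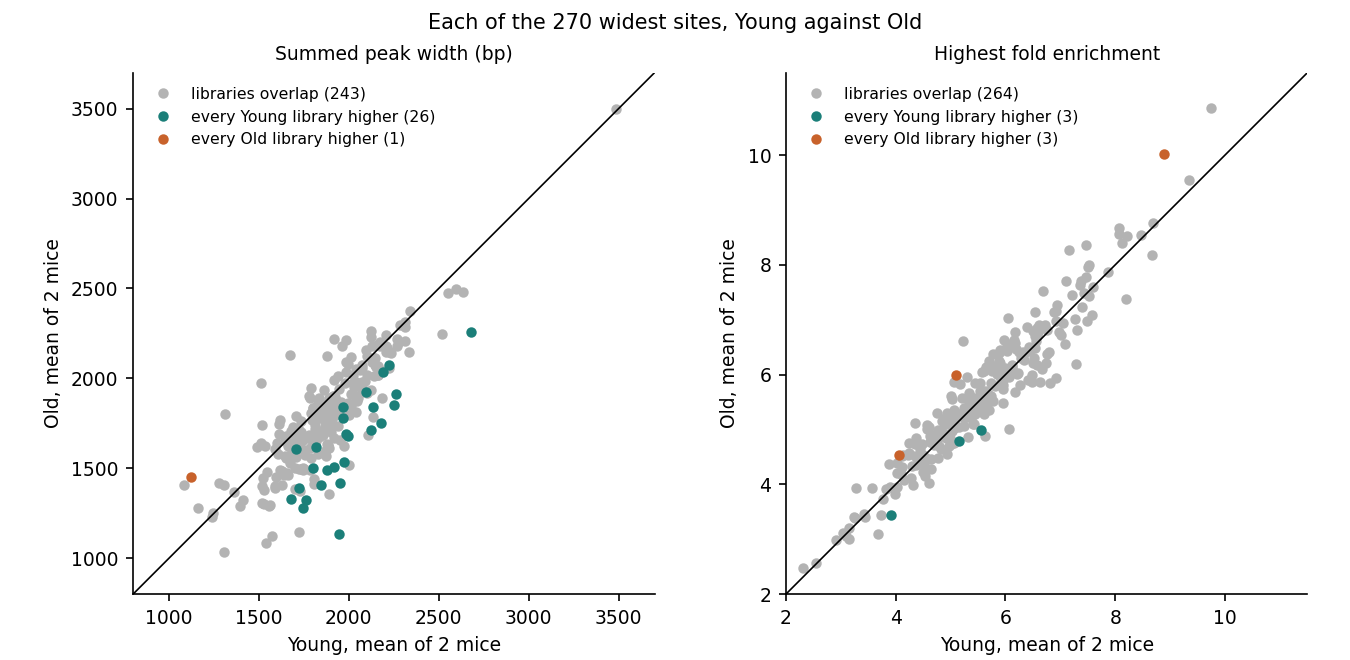
Each of the 270 sites by its Young and Old mean (2 mice each) for summed peak width in bp and for highest fold enrichment; the line marks equal values and colours mark sites whose libraries do not overlap between ages. For width 26 sites lie below the line with every Young library wider and 1 above it, and for height 3 sites lie on either side.

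The single site called with libraries as replicates was chr19:53387002-53389128 (limma adjusted p = 0.0023 in that fit and 0.232 on mouse means). Its summed peak width was 1899, 1932, 1991 and 1969 bp in the Young libraries and 1053, 1075, 1188 and 1219 bp in the Old libraries. No other chosen site had so large a ratio of width in either direction, at a log2 ratio of −0.78 ± 0.08 (standard error, limma on mouse means). Every library had 2 peaks there. The left peak was 199 to 471 bp wide in Old, and in 3 Young libraries it was 797 to 895 bp wide. In Young replicate 4 the break between the peaks lay further left, so that its left peak was 298 bp and its right peak 1671 bp. The mean height there was higher in Old: it was 5.13, 6.51, 4.55 and 4.74 in Young and 7.37, 6.44, 6.00 and 6.63 in Old, with Young replicate 2 above Old replicates 2 and 3.

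The other sites named for being narrower in Old without overlap were chr16:24391961-24394399, chr10:66383195-66385356, chr1:60622108-60624197 and chr19:56361282-56363420, with log2 ratios of −0.46, −0.45, −0.41 and −0.39. At chr16:24391961-24394399 the libraries of a mouse differed widely, with 1538 and 2358 bp in one Young mouse and 2090 and 1819 bp in the other, against 1281 to 1521 bp in Old. At chr19:56361282-56363420 the gap was 154 bp in Young and 500 bp in Old on average, and the Old libraries had 3 peaks each. Among the 12 widest sites chr11:77989762-77992665 was narrower in Old without overlap, with 2664, 2746, 2604 and 2702 bp in Young and 2198, 2288, 2369 and 2181 bp in Old, a log2 ratio of −0.25 ± 0.04 (standard error, limma adjusted p = 0.303). Its break between 2 peaks was wider in Old, at 316 against 98 bp on average, and its right peak ended nearer to the centre. Over the 26 sites the mean gap was larger in Old at 18, the mean extent was smaller at 25, and the mean height was higher in Old at 19.

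The site wider in every Old library was chr3:95478061-95480119. Its width was 1237, 769, 1213 and 1270 bp in Young and 1542, 1471, 1296 and 1488 bp in Old, a log2 ratio of 0.37 ± 0.12 (standard error, limma adjusted p = 0.405). Old replicate 3 was only just above Young replicate 4, and Young replicate 2 was far below the other Young libraries.

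Few stretches were open in one age alone. A run of 50 bp or more covered in all 4 Young and in no Old library was found in 6 sites, or 2.22%, and the opposite in 1 site, or 0.370%, against 3.41% and 0.305% of the sites of 1500 to under 2000 bp. The longest such runs were 162 bp in Young at chr18:83082409-83084628 and 133 bp in Old at chr9:44126429-44128801.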

How the data were processed

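ATAC-seq of whole liver from 4 mice (2 libraries each) was analysed from 1 peak list per library. The deposited lists give chromosome, start, end and a fold enrichment, a ratio that the authors' caller gave for each library on its own. The submitters' processing notes name FastQC 0.10.0, Trim Galore 0.3.0, Bowtie2, Picard 1.98, MACS2 and mm9, while the methods of the study describe other choices for ATAC-seq, and the calling threshold is not given in the sources used here. Of the peaks, 3589 on 9 chromosomes lay past GRCm38 ends, so GRCm38 annotation was not used. Starts were taken as counted from 0 and are printed 1 higher. Peak width follows the caller and its depth, and read totals are unknown.

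Peaks were merged with Python 3.11.15, numpy 2.4.6 and pandas 2.3.3. Ages were compared by exact permutation over mouse means, and limma 3.58.1 (R 4.3.3, trended empirical Bayes) was fitted to log2 values of all 36789 autosomal sites with a peak in every list, with a threshold of 0.05 and after a test on simulated data. Named sites were the 12 widest, the 6 of highest minimum fold, up to 5 per direction with the largest width ratio among sites without overlap, and the 3 just inside and outside the limit; further sites are said to be singled out where they appear. The sites, lists and tests were chosen with earlier results of these data known. Alternatives were replicate units, list size, fold and width limits, merging distance and left-out libraries. Mice numbered alike did not deviate together across sites (correlation 0.03 for width and 0.04 for fold), so the numbers were not taken as pairs. Genes and marker lists planned at the sites were not analysed here.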

Additional observations from a re-analysis of the deposited data

Results flagged for a closer look

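Among 124 groups of 4 libraries of one age, 8 had a library far from its group, where chance gives about 1 in 20. The groups included the width and fold of 27 named sites. In summed peak width, chr3:58218334-58221185 had 2746 bp in Young replicate 1 against 2482 to 2497 bp in the other Young libraries. At chr12:114378284-114381093 both ages had such a library, Young replicate 4 at 2128 bp and Old replicate 3 at 2536 bp. Old replicate 4 was low at chr10:66383195-66385356 with 1089 bp, and Young replicate 2 at chr3:95478061-95480119 with 769 bp. In fold, Young replicate 3 was high at chr11:77989762-77992665 with 4.29864 and low at chr4:109337779-109339981 with 8.71369. Young replicate 1 was low at chr6:134876976-134879139 with 8.35509, where the other Young libraries lay between 8.77 and 8.78.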

How the results depend on the processing

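Width rests on the caller, on unknown depth and on 2 mice per age, for which no permutation test can pass 0.05, and no site can be tied to a gene here. Of 95 alternative values, 63 kept their direction and side of the threshold or, for counts, stayed within a factor of 1.5. The difference in total width, −28.4 kb in Old, passed 0.05 only with libraries as replicates (exact permutation p = 0.0286). It turned to 0.375 kb higher in Old with lists of equal size and to 0.989 kb higher for the 4 sites of 3000 bp or more, and it was −33.5 to −23.3 kb when a library was left out. The causes were not tested. The share of the other sites' width, 0.0048 points higher in Old, was 0.0863 with lists of equal size and 0.0457 for peaks at or above the pooled median fold, and turned to −0.012 at 1500 bp or more, −0.075 with peaks up to 200 bp apart merged, −0.0064 without Old replicate 2 and −0.0052 without Old replicate 4 (range when a library was left out −0.0064 to 0.016), and, chosen after seeing the data, to −0.011 for sites covering 2000 bp in the Young lists alone and 0.0361 in the Old lists alone.

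The number of sites was 546 with peaks up to 200 bp apart merged, 1911 at 1500 bp and 4 at 3000 bp. It was 33 with peaks at or above the pooled median fold of 5.69, and 28 with 2000 bp in every list. When a library was left out it was 230 to 256. In a setting chosen after seeing the data, 168 of the sites had 2000 bp or more covered by the Old lists alone. Sites wider in every Young library (26, with 5.65% of all sites) became 16 with lists of equal size (5.24% of all sites), 5 after division by the list total (1.44%), 147 of 1911 at 1500 bp, 0 of 4 at 3000 bp and 31 to 49 when a library was left out (7.62% to 9.66%). Sites wider in every Old library (1, with 0.688%) became 7 (0.943%), 22 (4.82%), 6, 0 and 1 to 5 (1.18% to 1.52%). limma calls among the chosen sites stayed at 0 for fold, and were 0 for width except 1 with libraries as replicates. With the replicate block, which pairs mice by number, the difference of −28.4 kb had an exact permutation p of 0.5, the share kept its value of 0.0048 points, and limma called 0 chosen sites, while its calls over all sites went from 0 to 101 for fold and stayed at 0 for width. The 2 alternatives for sites with an annotated gene start were not run.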
